A study of Mus musculus with 54 samples.

Results

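The metallothioneins Mt1 and Mt2 and the genes that set zinc traffic around them were followed through every sorted macrophage population of the series. The 6 genes were taken by symbol, namely Mt1, Mt2, the transcription factor Mtf1, and the zinc carriers Slc30a1, Slc39a1 and Slc39a14. All 6 were present among the 33280 gene symbols, and all 6 passed the low-count filter in each of the 21 comparisons made. Metallothioneins are small cysteine-rich proteins that bind zinc and copper. Free zinc binds Mtf1, which then acts on metal response elements near the metallothionein genes and Slc30a1. Slc30a1 (ZnT1) carries zinc out of the cell, whereas Slc39a1 (ZIP1) and Slc39a14 (ZIP14) carry it into the cytosol, and in liver Slc39a14 and the metallothioneins are known to rise in inflammation.

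Bulk RNA-seq had been performed on 54 libraries in 18 groups of 3, each library from 1 mouse and 1 sorted population. MG, the microglia of the parenchyma, and sdCAMs, the subdural CNS-associated macrophages of leptomeninges and perivascular spaces, were sorted from brain without choroid plexus. WT mice and mice labelled Ccr2 KO (Ccr2-/- here) were untreated and given PBS, or given vehicle (CTL) and then lipopolysaccharide (LPS, a bacterial endotoxin), or given BLZ945, a CSF-1R inhibitor that depletes these cells, and then LPS. The LPS contrasts in WT and Ccr2-/- mice therefore also differ in the vehicle treatment. Reporter mice, labelled Ccr2CreERT2/CreERT2:R26tdT/tdT, all received BLZ945 and 2 mg of tamoxifen 3 times, and then LPS or PBS. Tamoxifen switches on tdTomato (tdT) only in cells that use the Ccr2 locus at that time, so tdT+ sdCAMs descend from such cells and tdT- sdCAMs are the remainder. Injection followed treatment by 8 weeks and preceded sorting by 12 h, and the age of the mice is not given in the labels.

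Several libraries stood apart. Totals were 1705930 to 7699790 counts in WT sdCAMs and 2060240 to 8751293 in reporter sdCAMs after LPS, against 7497764 to 11330781 in all other populations. An IEG correction, left unexplained in the labels, was noted for 6 of the 9 WT sdCAM libraries, hereafter the marked ones. In the reporter table, the column for mouse 1 tdT- and that for mouse 7 tdT+ (both LPS) carried each other's sequencing index relative to the labels, and the sex-linked transcripts of these 2 columns also went against those of the other libraries from the same mouse. Reporter sdCAM calls below are given as named and with the 2 columns exchanged. In a further reporter column, tdT+ sdCAMs of mouse 5 after LPS, MG markers were high, with P2ry12 at 1091 CPM and Tmem119 at 896.5 CPM, against 115.8 to 123.8 CPM and 109.6 to 164.1 CPM in the other tdT+ columns after LPS and 431 to 1269 CPM and 1094 to 3960 CPM in reporter MG after LPS. The 5 sdCAM markers named next summed to 651.5 CPM in that column and to 3512 and 4340 CPM in the other tdT+ columns. In Ccr2-/- mice given LPS, library titles and cell type fields disagreed on MG and sdCAMs. The field was used, and the 5 sdCAM markers Mrc1, Pf4, Lyve1, Cd163 and Ms4a7 summed to 2776 to 14430 CPM (the gene's share of all counts in the library times 1e+06) in Ccr2-/- sdCAMs and 3.519 to 23.83 CPM in Ccr2-/- MG. Ccr2 itself lay at 16.83 to 42.96 CPM in untreated WT sdCAMs and 2.46 to 5.59 CPM in untreated Ccr2-/- sdCAMs.

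Metal response elements share the core TGCACNC or TGCGCNC. These cores are shown because Mtf1 acts through them and both metallothioneins were higher after LPS in each population. In the first 200 bases of the most upstream GENCODE M21 transcript of each gene (GRCm38), searched on both strands, Mt1 held 4 cores, Mt2 held 3, Slc30a1 held 1, and Mtf1, Slc39a1 and Slc39a14 held 0. Of 21833 protein-coding genes searched the same way, 0.119% held at least 4 cores, 0.788% at least 3 and 20.9% at least 1. Each core stands in capitals below, with 7 flanking bases on each side, on the strand of the gene, 5′ to 3′. Capitals that begin with G hold the core on the opposite strand.
Mt1, chr8:94179084-94179104: ggagctcTGCACTCcgcccga
Mt1, chr8:94179102-94179122: cgaaaagTGCGCTCggctctg
Mt1, chr8:94179166-94179186: gcctgctGGGTGCAaaccctt
Mt1, chr8:94179180-94179200: aacccttTGCGCCCggactcg
Mt2, chr8:94172669-94172689: aaagggcGTGTGCAggcggcg
Mt2, chr8:94172688-94172708: cgggggcGCGTGCAtggtgcc
Mt2, chr8:94172722-94172742: gagctttTGCGCTCgacccaa
Slc30a1, chr1:191906804-191906824: ccgggccGAGCGCAgtcgccg
This search was made after that of the RefSeq windows given next. The stretches lie inside the first exon of the transcript model that starts furthest upstream, and the next annotated start of Mt1 lies 122 bases downstream of its RefSeq start. In the 250 bases before the RefSeq starts (GRCm38.p6), Mt1 held 1 core, Mt2 held 3, Slc30a1 held 1, and Mtf1 and Slc39a1 held 0. Of 32851 such windows, 21.4% held at least 1 core and 1.26% at least 3. No window was available for Slc39a14. A match is a description of the letters and not evidence of binding.

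Mt1 and Mt2 lie side by side on chromosome 8 (Mt1 at 94179082 to 94180327, Mt2 at 94172664 to 94173568, both on the plus strand). None of the 50-base stretches of Mt1 transcripts occurred in another gene's transcripts. For Mt2, 45.8% of them lay antisense to the transcript Gm45774, and for Slc39a1, 21.8% also occurred in its pseudogene Slc39a1-ps, so counts of Mt2 and Slc39a1 are uncertain to that extent. The shares were 8.01% for Slc30a1 and 7.55% for Mtf1, both against 1 antisense transcript, and 0.196% for Slc39a14.

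Both metallothioneins were higher after LPS in MG of WT mice. Mt1 lay at 19.79, 23.94 and 33.08 CPM in untreated WT MG and at 118.3, 147.46 and 303.25 CPM after CTL and LPS. Every LPS library lay above every untreated one, and the log2 fold change was 2.81 ± 0.364 (SE, n = 3 against 3, edgeR adjusted p = 0.000203). Mt2 went from 0.25, 0.27 and 0.56 CPM to 7.61, 15.92 and 62.53 CPM, a log2 fold change of 6.16 ± 1.04. Mt2 passed the low-count filter in WT and Ccr2-/- MG through LPS libraries alone, and so had to differ, and its values there are a description. A call denotes an edgeR adjusted p under 0.05 with a log2 fold change over 1 in size. Leaving Mt2 aside, Mt1 and Slc39a14 made 2 of 5 genes called, against 16.7% of all genes tested in WT MG. In bulk samples, fewer cells of a type and less RNA per cell cannot be told apart.

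**Figure D1:**
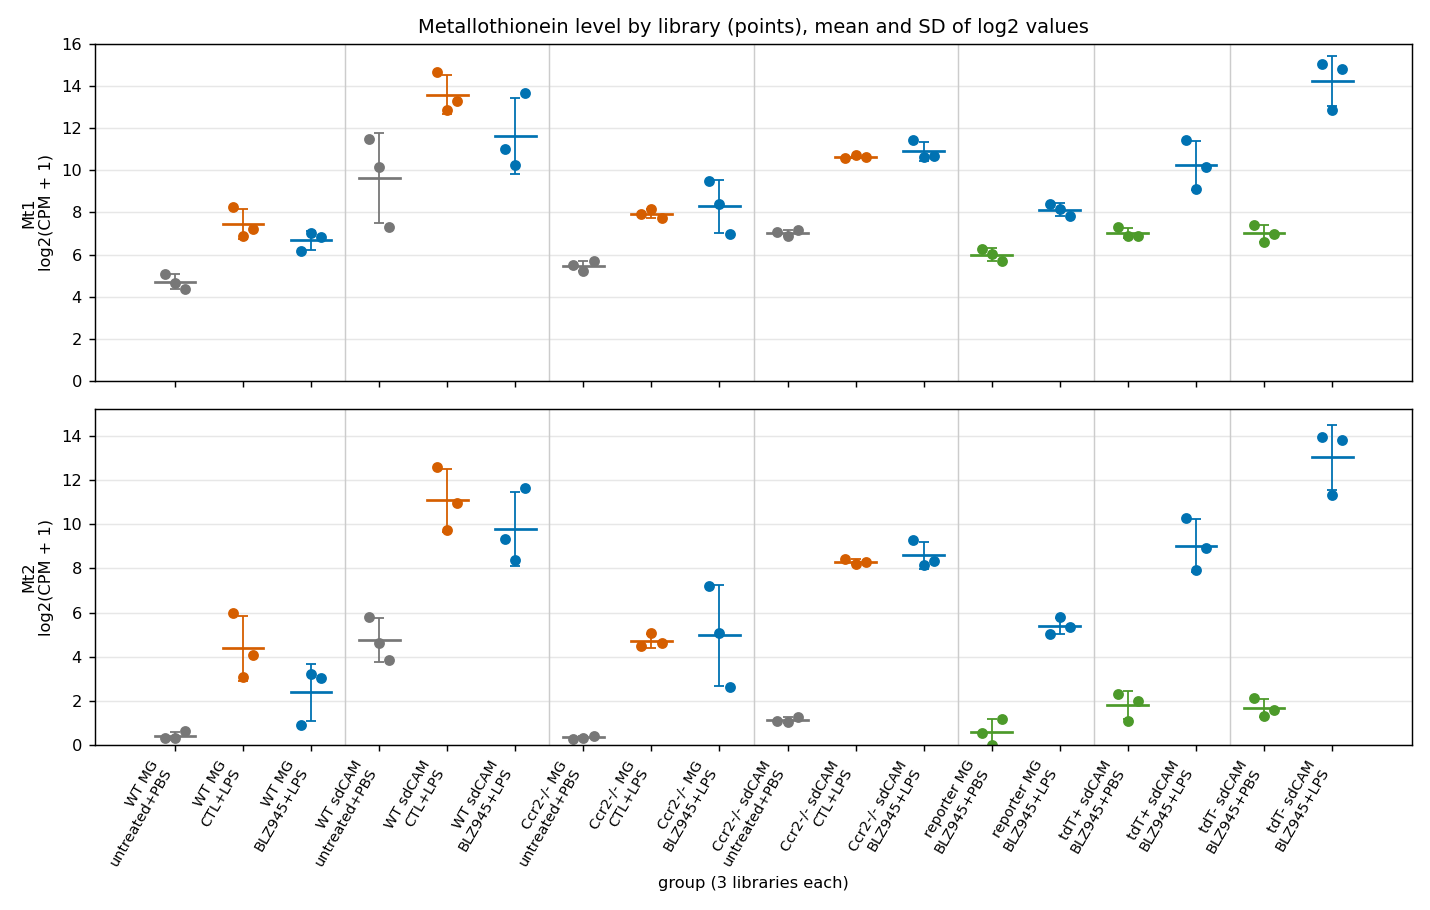
Level of Mt1 (top) and Mt2 (bottom) as log2(CPM + 1) in each of the 18 groups, with 1 point per library and bars for the mean and SD of 3 libraries. The LPS libraries sit above the untreated or PBS libraries of the same population throughout, except in WT sdCAMs after BLZ945, where Mt1 overlaps the untreated range.

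Ccr2-/- MG showed the same order of levels. Mt1 rose from 35.9 to 50.81 CPM when untreated to 212.55 to 286.96 CPM after CTL and LPS (log2 fold change 2.44 ± 0.452, edgeR adjusted p = 0.000827). Mt2 was close to its detection limit in untreated Ccr2-/- MG, with 2, 3 and 3 counts in the libraries, and lay at 21.53, 23.47 and 33.32 CPM after LPS. The ratio of summed counts over library totals was 91.7, with a 95% exact interval of 46.3 to 213 that covers counting error only. Leaving Mt2 aside, 2 of 5 genes were called, again Mt1 and Slc39a14, against 19.4% of all genes. The change did not differ detectably between genotypes, with an interaction of -0.33 ± 0.636 for Mt1 and 0.28 ± 2.14 for Mt2 (Ccr2-/- minus WT, edgeR adjusted p = 1 for both). In that interaction 0% of genes were called by edgeR, 503 had an unadjusted p under 0.05, and DESeq2 called 1.

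Both metallothioneins were higher after LPS in Ccr2-/- sdCAMs. Mt1 lay at 118.04, 132.59 and 143.5 CPM in untreated Ccr2-/- sdCAMs and at 1545.15, 1571.78 and 1674.13 CPM after CTL and LPS. The groups were far apart relative to the spread within them, and the log2 fold change was 3.75 ± 0.232 (edgeR adjusted p = 1.98e-07). Mt2 rose from 1.11, 1.12 and 1.46 CPM to 292.84, 310.15 and 342.68 CPM, a log2 fold change of 8.14 ± 0.395. Only 2 untreated libraries reached the 1.12 CPM that the low-count filter asks of 3. Mt2 therefore passed only with the help of LPS libraries, and its values here are a description. Leaving Mt2 aside, Mt1 and Slc39a14 were called and Mtf1, Slc30a1 and Slc39a1 were not, against 21.5% of all genes called. The neutrophil list summed to 0.9729 to 2.688 CPM untreated and 75.31 to 117.7 CPM after LPS in these libraries, of which S100a8 gave 58.3 to 89.5 CPM, while Ly6g was 0 in all of them. The astrocyte list (Aqp4, Gfap, Slc1a2, Gja1 and Aldh1l1) summed to 49.86 to 66.35 CPM untreated and 135.2 to 191.7 CPM after LPS. Of this, Gja1 gave 12.8 to 37.3 CPM untreated and 108 to 144 CPM after LPS, while the ranges of Aqp4, Gfap, Slc1a2 and Aldh1l1 overlapped. The 5 MG markers (P2ry12, Tmem119, Sall1, Siglech and Sparc) summed to 2028 to 3074 CPM untreated and 451.3 to 723.6 CPM after LPS. The part of these lists in the result was not tested.

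In WT sdCAMs the metallothioneins spread widely. Mt1 lay at 156.03, 1127.87 and 2905.52 CPM in untreated WT sdCAMs and at 7429.59, 10040.74 and 26130.84 CPM after CTL and LPS. The groups did not overlap, yet with a log2 fold change of 4.71 ± 1.84 Mt1 was not called (edgeR adjusted p = 0.14). Mt2 went from 13.48, 24.04 and 55.43 CPM to 848.46, 2011.31 and 6067.96 CPM and was called (log2 fold change 7.98 ± 1.79, edgeR adjusted p = 0.0271). With Slc39a1 and Slc39a14, 3 of 6 genes were called, against 6.32% of all genes. The calls in WT sdCAMs rested on single libraries, since 0 of the 6 genes were called without CTL mouse 1 or 6 or without untreated mouse 14 or 15, 1 without untreated mouse 9, and 2 without CTL mouse 4. The neutrophil list summed to 0 to 79.37 CPM untreated and 129.5 to 1129 CPM after LPS, of which S100a8 gave up to 1120 CPM and Ly6g 0, and the 5 MG markers to 3396 to 8005 CPM and 286 to 775.7 CPM. Their part in the result was not tested.

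In WT sdCAMs the metallothionein level also followed the mark in the labels. The untreated library without the mark held 156.03 CPM of Mt1 and the 2 with the mark held 1127.87 and 2905.52 CPM. After BLZ945 and LPS, the 2 libraries without the mark held 1204.62 and 2105.79 CPM and the marked one held 13103.2 CPM, while all 3 CTL libraries were marked. The marked libraries also gave 11.3% to 35.1% of their counts to genes whose longest annotated transcript is under 1000 bases, Mt1 and Mt2 left out, against 4.68% to 6.55% in the 3 others. Within marked libraries alone, the 3 of CTL and LPS against the 2 untreated gave a log2 fold change of 4.18 for Mt1 and 7.57 for Mt2. The share of short genes still differed there, at 25.4% to 30.6% after CTL and LPS against 11.3% and 17.9% untreated. With the share of short genes as a covariate, an alternative chosen after the data were seen, the values were 2.84 for Mt1 (edgeR adjusted p = 0.0547) and 6.14 for Mt2 (edgeR adjusted p = 0.00275).

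**Figure D2:**
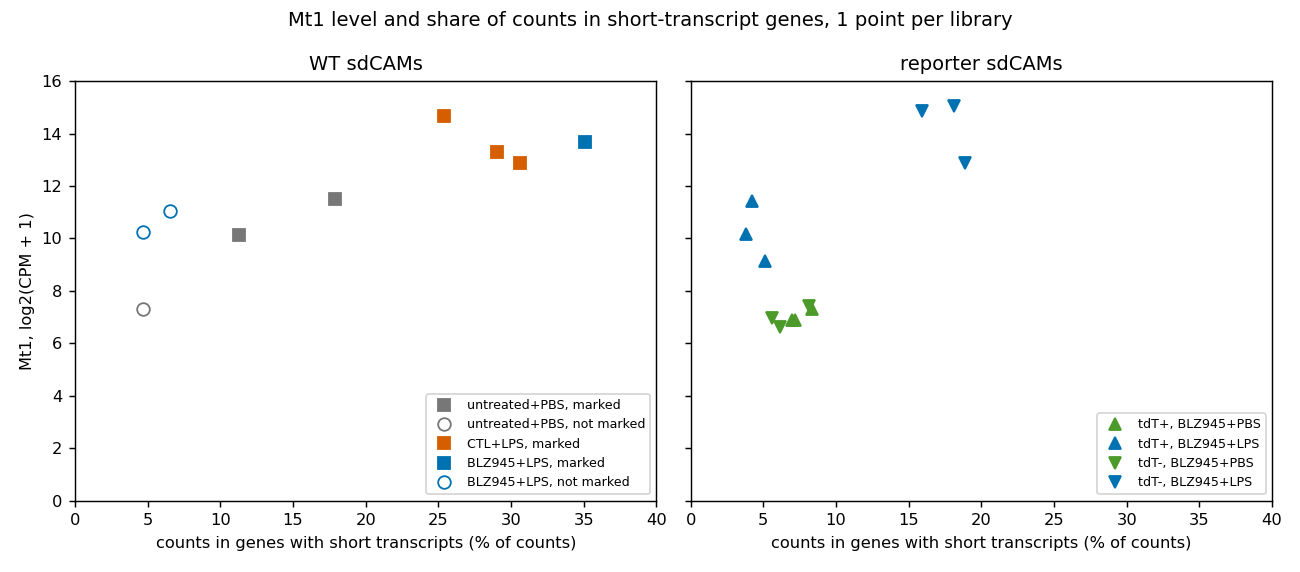
Mt1 level as log2(CPM + 1) against the percentage of counts in genes with short transcripts, 1 point per library, for WT sdCAMs (left) and reporter sdCAMs (right), with shapes for the mark or tdT state and colours for treatment. Libraries with over 11% of counts in short genes are the 6 marked WT libraries and the 3 tdT- libraries after LPS, and they hold 1127.87 CPM of Mt1 or more. Some libraries below 11% exceed that level too. They are the unmarked WT libraries after BLZ945 and LPS, at 1204.62 and 2105.79 CPM, and tdT+ libraries after LPS, at 1161.99 and 2786.08 CPM.

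The LPS response of the metallothioneins was numerically larger in sdCAMs than in MG, but the difference was not called. The cell type by LPS interaction (sdCAMs minus MG) was 1.83 ± 1.55 for Mt1 and 1.76 ± 1.93 for Mt2 in WT mice (edgeR adjusted p = 0.569 and 0.682), where 1.32% of all genes were called. In Ccr2-/- mice it was 1.35 ± 0.565 for Mt1 and 1.78 ± 1.95 for Mt2 (edgeR adjusted p = 0.171 and 0.694), with 6.88% of all genes called. With the mouse as a block, since both populations came from the same animals, Mt1 was called in Ccr2-/- mice and made 1 of the 6 genes. Between genotypes, the sdCAM response differed by -0.76 ± 1.45 for Mt1 and 0.34 ± 1.28 for Mt2 (edgeR adjusted p = 0.87 and 0.945). There 0% of genes were called by edgeR, 1792 had an unadjusted p under 0.05, and DESeq2 called 242. All WT CTL sdCAM libraries were marked and gave 25.4% to 30.6% of counts to short genes. The Ccr2-/- CTL sdCAM libraries were unmarked, at 6.2% to 6.3%, so genotype and mark cannot be told apart. The authors applied a batch correction to the WT and Ccr2-/- counts, and none was applied here for either cell type.

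In reporter MG the direction was the same but the call was missed. Mt1 lay at 51.07, 63.91 and 76.81 CPM after PBS and 224.29, 288.32 and 340.69 CPM after LPS, without overlap (log2 fold change 1.90 ± 0.383, edgeR adjusted p = 0.0728). Mt2 lay at 0, 0.47 and 1.29 CPM and at 32.08, 40.14 and 54.26 CPM, a log2 fold change of 5.92 ± 1.3. Only 1 PBS library reached the 1.12 CPM that the low-count filter asks of 3. Mt2 therefore passed only with the help of LPS libraries, and its values here are a description. Slc39a14 alone of the 6 genes was called, against 1.08% of all genes. The PBS library of mouse 175 decided this, because without it Mt1 and Slc39a14 were both called, and leaving out any other library left 0 calls among the 6.

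Both reporter sdCAM fractions had low metallothionein levels after PBS. Mt1 lay at 117.65, 118.35 and 157.81 CPM in tdT+ sdCAMs and at 97.15, 125.68 and 171.21 CPM in tdT- sdCAMs. The ranges overlapped, as did those of Mt2 at 1.16 to 3.99 CPM and 1.52 to 3.38 CPM, and 0 of 6 genes were called between the fractions, against 0.0236% of all genes. After LPS, tdT+ sdCAMs reached 557.28, 1161.99 and 2786.08 CPM of Mt1 (log2 fold change 3.29 ± 0.592, edgeR adjusted p = 0.00203) and 239.96, 481.92 and 1237.72 CPM of Mt2 (7.67 ± 0.834, edgeR adjusted p = 5.82e-05). In tdT+ sdCAMs 4 of 6 genes were called, against 13.4% of all genes, and with the 2 columns exchanged also 4, against 8.63%.

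The tdT- columns after LPS had the highest group means of Mt1 and Mt2 in the series, as named. Mt1 lay at 7508.83, 29405.02 and 33914.75 CPM and Mt2 at 2550.94, 14291.53 and 15779.16 CPM, and in the library of mouse 1 the pair took 4.97% of all counts. The log2 fold change was 8.20 ± 0.742 for Mt1 (edgeR adjusted p = 4.09e-06) and 12.88 ± 1.01 for Mt2 (edgeR adjusted p = 1.6e-06), and 5 of 6 genes were called against 26.5% of all genes, or 4 against 11.9% with the 2 columns exchanged. Summing the fractions of each mouse, which sets the tdT state aside, gave 7.11 ± 0.686 for Mt1 and 11.68 ± 0.958 for Mt2 (edgeR adjusted p = 0.000292 and 0.000196). Of the 6 genes, 4 were called in the sums, against 25.1% of all genes. With the 2 columns exchanged the same 4 were called in the sums, and Mt1 changed by 7.19 in tdT+ and 7.29 in tdT- sdCAMs and Mt2 by 11.66 and 11.93, all still called (edgeR adjusted p = 0.0166, 0.0129, 0.00438 and 0.00301).

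**Figure D3:**
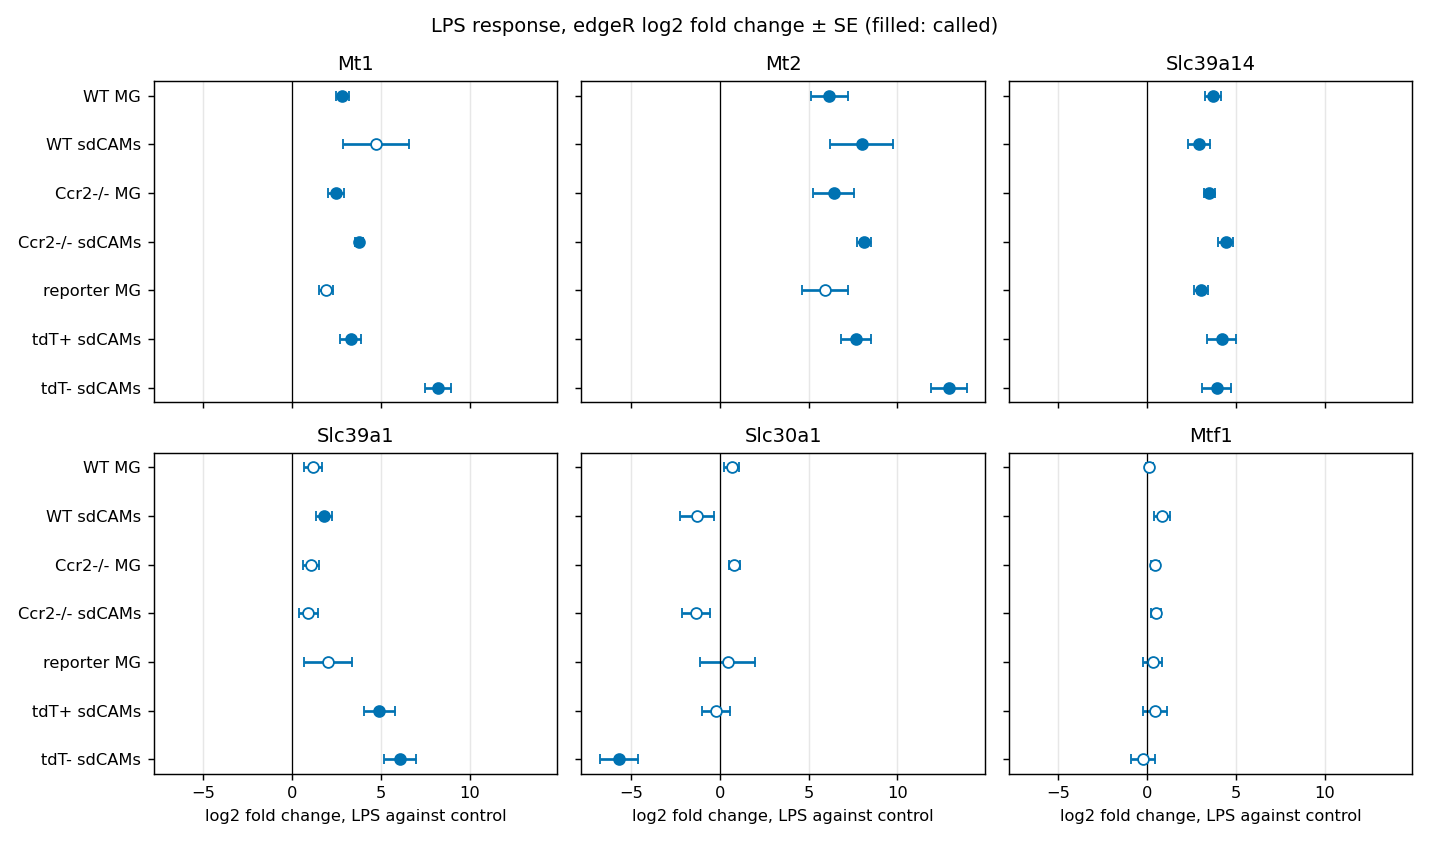
Log2 fold change of each gene after LPS against the untreated or PBS group in 7 populations, with bars for the SE of the edgeR fit, filled where called. Mt1, Mt2, Slc39a14 and Slc39a1 lie right of 0 in all 7 populations, Slc30a1 lies on both sides, and Mtf1 stays between -0.24 and 0.81. Reporter sdCAMs are plotted as named, and Mt2 in WT and Ccr2-/- MG passed the low-count filter through LPS libraries alone. In reporter MG and Ccr2-/- sdCAMs too few control libraries reached the limit for Mt2 to pass without LPS libraries.

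As named, tdT+ sdCAMs fell short of tdT- sdCAMs after LPS for both metallothioneins. The log2 difference, tdT+ minus tdT-, was -4.89 ± 0.638 for Mt1 and -4.95 ± 0.725 for Mt2 (edgeR adjusted p = 1e-04 and 3e-04), and with Slc30a1 3 of 6 genes were called against 10.6% of all genes. The tdT by LPS interaction was -4.92 ± 0.809 for Mt1 and -5.21 ± 0.969 for Mt2 (edgeR adjusted p = 0.00144 and 0.00418), again with 3 of 6 genes called, against 5.17% of all genes. With the 2 columns exchanged, the differences after LPS became -0.07 for Mt1 and -0.01 for Mt2, and 0 of the 6 genes were called by edgeR in either comparison. Over all genes edgeR then called 0 in both, with an unadjusted p under 0.05 for 816 genes after LPS and 605 in the interaction, and DESeq2 called 25 and 32. Mouse 5, which the exchange does not touch, held 557.28 CPM of Mt1 in tdT+ and 7508.83 CPM in tdT- sdCAMs, but its tdT+ column is the one with high MG markers, and reporter MG held 224.29 to 340.69 CPM after LPS. Without that column, and with the others as named, the difference after LPS was -4.45 for Mt1 and -4.51 for Mt2 (edgeR adjusted p = 0.000197 and 0.00116). Of the 5 sdCAM markers, Pf4 lay at 34.2 to 107.8 CPM in the tdT+ columns as named and 1049 to 1341 CPM in the tdT- columns. Ms4a7 lay at 67.3 to 353 CPM and 713 to 760 CPM. The ranges of Mrc1 (375 to 2270 CPM and 327 to 595 CPM), Lyve1 and Cd163 overlapped. Together the 5 summed to 651.5 to 4340 CPM in the tdT+ columns and 2562 to 2968 CPM in the tdT- columns. The share of counts in short genes was 3.83% to 5.1% in the tdT+ columns and 15.9% to 18.9% in the tdT- columns after LPS, so the composition of the libraries and the tdT state as named cannot be told apart. With that share as a covariate 0 of the 6 genes were called between the fractions. The tdT- columns held 281.3 to 1502 CPM of the neutrophil list, of which S100a8 gave 268 to 1420 CPM and Ly6g 0, against 21.22 to 84.46 CPM in tdT+ columns. Whether these marker values bear on the difference was not tested.

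**Figure D4:**
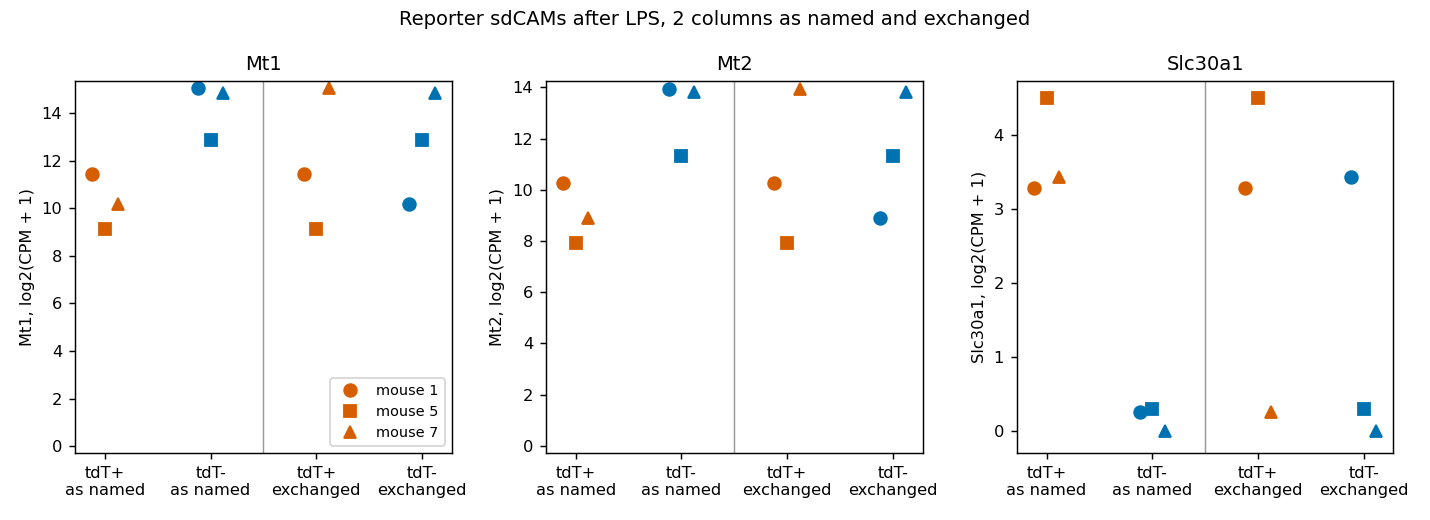
Mt1, Mt2 and Slc30a1 as log2(CPM + 1) in tdT+ and tdT- sdCAMs of reporter mice 1, 5 and 7 after LPS, 1 point per library, with the columns as named and with tdT- of mouse 1 and tdT+ of mouse 7 exchanged. As named the fractions do not overlap for any of the 3 genes, and after the exchange they overlap for all 3.

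More Mt2 was counted per Mt1 after LPS than in the untreated or PBS libraries of the same population, without a test that could pass at this size. For each 100 counts of Mt1, there were 0 to 8.64 counts of Mt2 in untreated or PBS libraries. After LPS the count was 6.44 to 20.6 in WT MG, 11.4 to 23.2 in WT sdCAMs, 9.01 to 11.6 in Ccr2-/- MG and 17.5 to 22.2 in Ccr2-/- sdCAMs. In reporter mice it was 9.42 to 18.8 in MG, 41.5 to 44.4 in tdT+ and 34 to 48.6 in tdT- sdCAMs. The groups did not overlap in any of the 7 comparisons, and each gave p = 0.1 in a two-sided exact permutation test on the log2 ratio (0.1 after adjustment over the 7), the smallest value that 3 against 3 can give. After LPS the ratio overlapped between the tdT fractions as named, unlike the levels, and with the 2 columns exchanged it was 43.1 to 46.5 in tdT+ and 34 to 48.6 in tdT- sdCAMs. With BLZ945 and LPS it was 24.4 to 30.5 in WT sdCAMs and 17.8 to 22.7 in Ccr2-/- sdCAMs, but 1.25 to 6.56 in WT MG, where it overlapped the untreated range.

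Slc39a14, the inflammatory zinc importer, was the gene called in all 7 LPS responses. In WT MG it rose from 24.94, 40.62 and 46.82 CPM to 213.64, 404.7 and 932.43 CPM (log2 fold change 3.70 ± 0.463, edgeR adjusted p = 0.00016). In Ccr2-/- MG it rose from 22.64, 23.48 and 24.49 CPM to 202.92, 299.89 and 335.2 CPM (3.50 ± 0.316, edgeR adjusted p = 2.1e-06), and in reporter MG from 26.61 to 39.93 CPM to 231.57 to 425.34 CPM (3.04 ± 0.4, edgeR adjusted p = 0.0239). No library of one group reached the other in any of these 3 MG comparisons. In Ccr2-/- sdCAMs the gene went from 4.03, 8.51 and 18.34 CPM to 176.79, 199.93 and 215.58 CPM (4.41 ± 0.429, edgeR adjusted p = 8.44e-06).

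In the other sdCAM populations Slc39a14 moved the same way with more scatter. WT sdCAMs had 6.01, 14.51 and 26.57 CPM untreated and 22.21, 57.01 and 58.44 CPM after CTL and LPS, so the ranges overlapped, although the fit gave 2.92 ± 0.632 (edgeR adjusted p = 0.0237). There the scaling factors between libraries spanned 0.486 to 1.93. After BLZ945 and LPS, the unmarked WT sdCAM libraries held 196.44 and 260.85 CPM and the marked one 48.32 CPM, the reverse of the order seen for Mt1. In tdT+ sdCAMs the gene rose from 12.6 to 17.98 CPM to 275.21 to 403.9 CPM (4.18 ± 0.804, edgeR adjusted p = 0.00313) and in tdT- sdCAMs from 0.2, 15.46 and 16.75 CPM to 78.16, 88.38 and 113.64 CPM (3.90 ± 0.797, edgeR adjusted p = 0.00194). With the 2 columns exchanged these became 3.78 ± 0.903 and 4.42 ± 0.932 (edgeR adjusted p = 0.0201 and 0.00868).

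**Figure D5:**
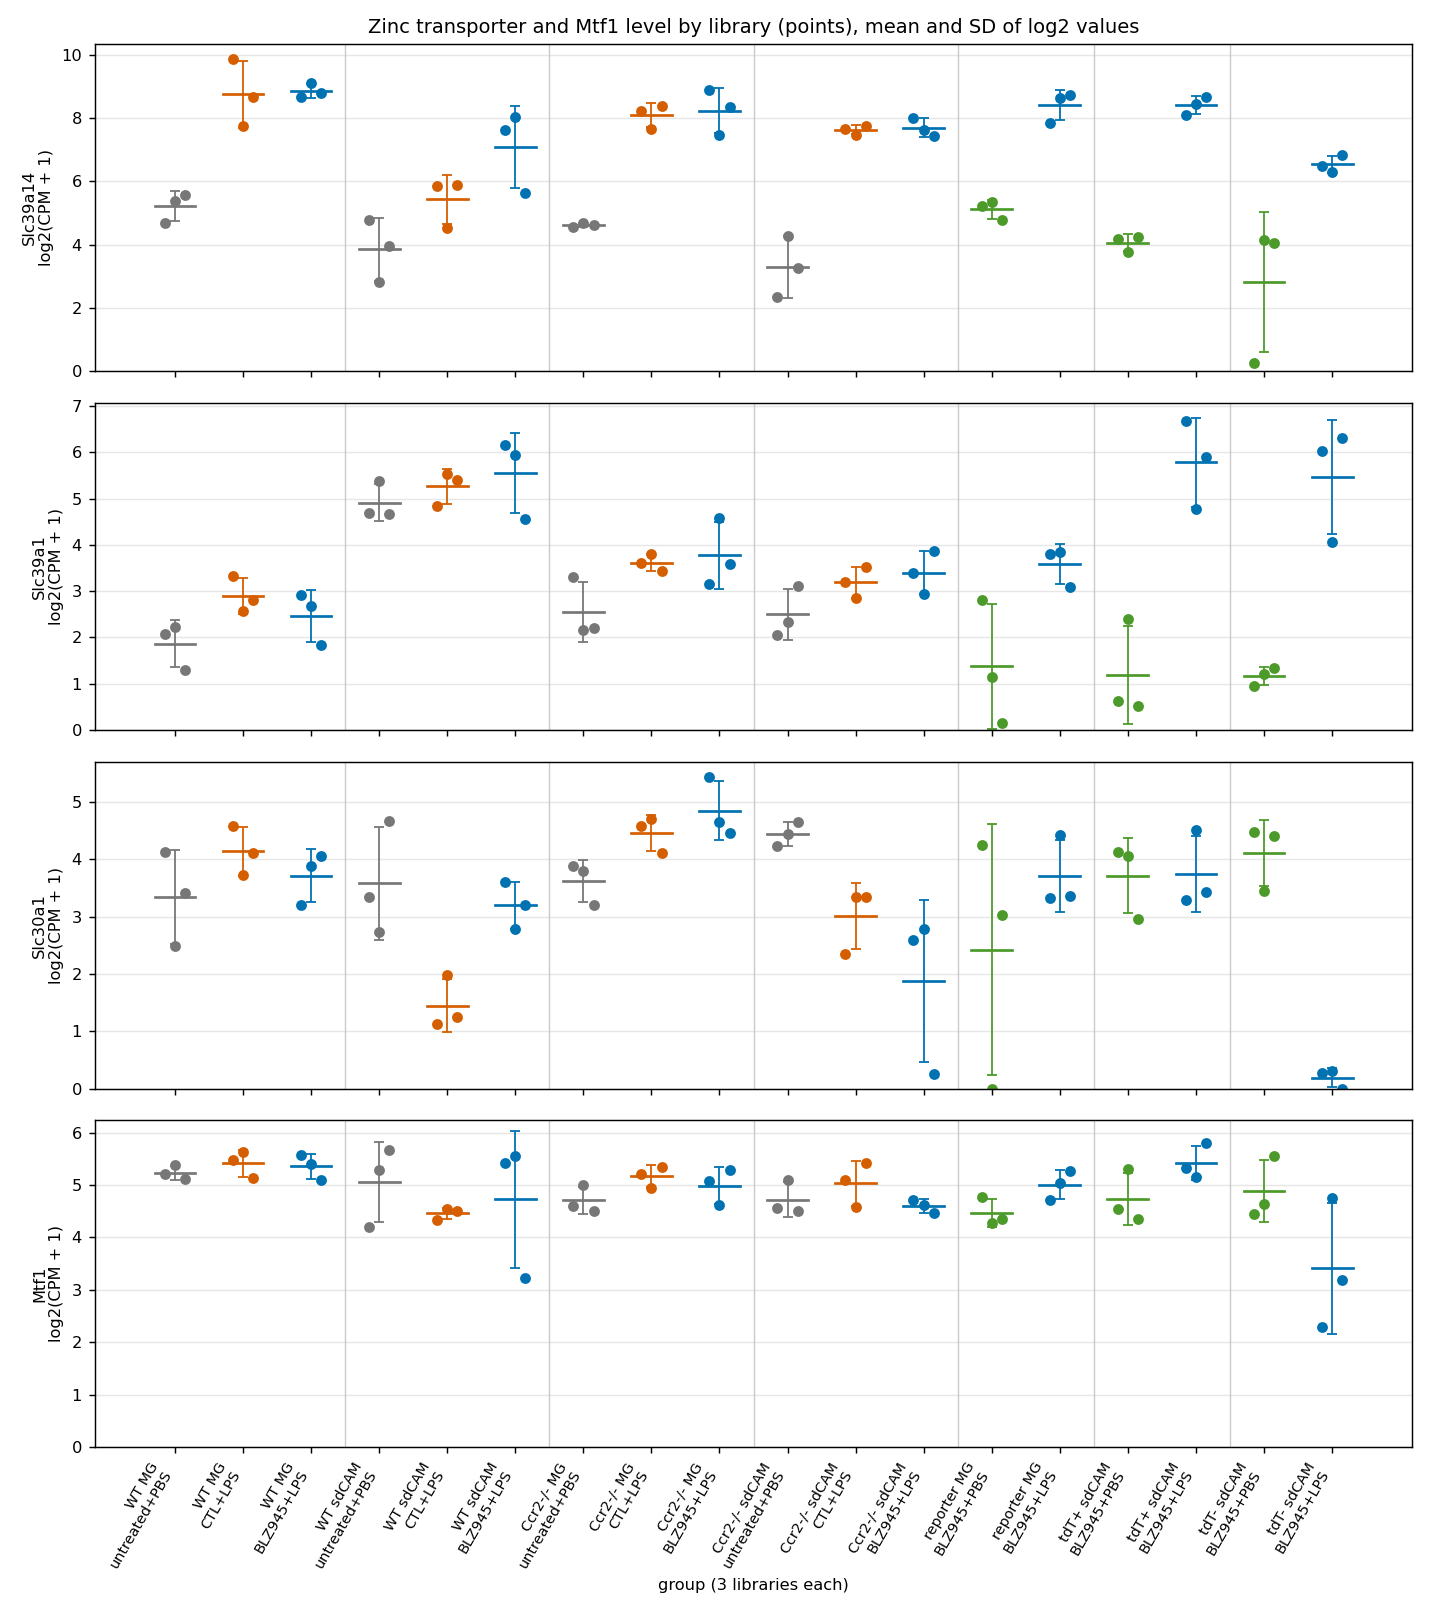
Level of Slc39a14, Slc39a1, Slc30a1 and Mtf1 as log2(CPM + 1) in each of the 18 groups, with 1 point per library and bars for the mean and SD of 3 libraries. The mean of Slc39a14 is higher after LPS in each population, Slc39a1 is high in WT sdCAMs and in reporter sdCAMs after LPS, and Slc30a1 is near 0 in tdT- sdCAMs after LPS.

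Slc39a1, the importer of the plasma membrane, was higher at rest in sdCAMs than in MG in WT mice but not in Ccr2-/- mice. Untreated WT sdCAMs held 24.36, 24.93 and 40.47 CPM and untreated WT MG 1.45, 3.2 and 3.69 CPM, a log2 difference of 3.80 ± 0.486 (edgeR adjusted p = 5.22e-05). In Ccr2-/- mice the populations overlapped at 3.14 to 7.66 CPM in sdCAMs and 3.43 to 8.88 CPM in MG (-0.08 ± 0.503, edgeR adjusted p = 0.946). Whether this population difference itself depends on genotype was not tested. After LPS, Slc39a1 was called in WT sdCAMs at 27.66, 41.44 and 45.25 CPM (1.78 ± 0.435, edgeR adjusted p = 0.0368), although its range overlapped the untreated one and leaving out any 1 of the 6 libraries ended the call. It rose in tdT+ sdCAMs from 0.43, 0.55 and 4.28 CPM to 26.34, 58.43 and 100.96 CPM (4.90 ± 0.871, edgeR adjusted p = 0.00187) and in tdT- sdCAMs from 0.92, 1.32 and 1.52 CPM to 15.65, 64.65 and 77.84 CPM (6.06 ± 0.919, edgeR adjusted p = 0.00018). With the 2 columns exchanged these became 5.32 ± 0.949 and 5.72 ± 0.969 (edgeR adjusted p = 0.00474 and 0.00262). In Ccr2-/- sdCAMs the values were 6.25 to 10.46 CPM after LPS, with no call (0.89 ± 0.54, edgeR adjusted p = 0.256). Libraries with over 15 CPM of Slc39a1 were those of WT sdCAMs and of reporter sdCAMs after LPS, the populations that include the lowest totals, apart from 1 Ccr2-/- MG library after BLZ945 at 22.8 CPM, and the part of depth in these levels was not tested.

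Slc30a1, the zinc exporter, was called only in tdT- sdCAMs among the 7 LPS responses, where it fell. After PBS these held 9.85, 20.15 and 21.31 CPM and after LPS 0, 0.2 and 0.23 CPM, from 0, 1 and 2 counts (log2 fold change -5.69 ± 1.07, edgeR adjusted p = 0.00103). The ratio of summed counts over totals, PBS to LPS, was 95.6, with a 95% exact interval of 32.5 to 465 for counting error. With the 2 columns exchanged the fall was no longer called (-2.45, edgeR adjusted p = 0.247), nor was it in the sums per mouse (-1.24 ± 0.593, edgeR adjusted p = 0.152). In tdT+ sdCAMs Slc30a1 lay at 6.78 to 16.51 CPM after PBS and 8.74 to 21.76 CPM after LPS. The tdT difference after LPS was 5.10 ± 1.06 (edgeR adjusted p = 0.00532) and the interaction 5.47 ± 1.32 (edgeR adjusted p = 0.0236), the latter not called with the mouse as a block (5.62, edgeR adjusted p = 0.0544), and neither was called after the exchange.

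Outside reporter mice, Slc30a1 pointed in opposite directions in the cell types without a call in either. In MG it went from 4.58 to 16.4 CPM to 12.2 to 22.89 CPM in WT and from 8.19 to 13.76 CPM to 16.18 to 24.86 CPM in Ccr2-/- mice (0.66 ± 0.425 and 0.81 ± 0.319, edgeR adjusted p = 0.267 and 0.0634). In sdCAMs it went from 5.61 to 24.36 CPM to 1.17 to 2.93 CPM in WT and from 17.81 to 24.08 CPM to 4.06 to 9.16 CPM in Ccr2-/- mice (-1.27 ± 0.965 and -1.34 ± 0.765, edgeR adjusted p = 0.445 and 0.224). In reporter MG the PBS libraries held 0, 7.11 and 18.07 CPM and the LPS libraries 9.01 to 20.48 CPM, which overlapped. The cell type by LPS interaction was -2.08 ± 1.02 in WT and -2.11 ± 0.846 in Ccr2-/- mice (edgeR adjusted p = 0.298 and 0.15). Without the low-count filter, the Ccr2-/- interaction was called for Slc30a1 and for Mt1.

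Mtf1, the zinc sensor upstream of the metallothioneins, was called in none of the 21 comparisons. Its log2 fold change after LPS lay between -0.24 and 0.81 in the 7 populations. Levels were 33.58 to 40.62 CPM in untreated WT MG and 34.06 to 48.46 CPM after LPS, and 21.65 to 33.36 CPM and 22.87 to 41.71 CPM in Ccr2-/- sdCAMs. The lowest libraries were tdT- sdCAMs of mice 1 and 7 after LPS, at 3.89 and 8.1 CPM, and WT sdCAMs of mouse 12 after BLZ945, at 8.36 CPM. In WT sdCAMs the unscaled CPM fell in mean from 35.07 to 21.04 while the fit gave 0.81 ± 0.449, so the direction for Mtf1 there depended on the scaling between libraries. A transcript level does not measure zinc-bound Mtf1 protein.

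At rest, sdCAMs held more Mt1 transcript than MG in both genotypes. In WT mice the log2 difference was 6.32 ± 1.37 for Mt1 and 6.80 ± 1.53 for Mt2 (edgeR adjusted p = 0.00492 and 0.00609), and with Slc39a1 3 of 6 genes were called against 17.1% of all genes. The marked WT sdCAM libraries held 1127.87 and 2905.52 CPM and the other 156.03 CPM, close to the Ccr2-/- level, and without marked mouse 9 the difference for Mt1 was 4.99 (edgeR adjusted p = 0.0203). In Ccr2-/- mice the difference for Mt1 was 1.62 ± 0.411 (edgeR adjusted p = 0.00681), with values of 118.04 to 143.5 CPM in sdCAMs and 35.9 to 50.81 CPM in MG, Mt2 was not called (2.09 ± 1.47, edgeR adjusted p = 0.354), and Slc39a14 was lower in sdCAMs (-1.17 ± 0.406, edgeR adjusted p = 0.0444). There 2 of 6 genes were called, against 15% of all genes, and the Slc39a14 call was lost in 5 of the 6 fits that left out 1 library.

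Between BLZ945 and CTL mice after LPS, none of the 6 genes was called in any of 4 populations. Mt1 after LPS lay at 71, 113.62 and 128.22 CPM with BLZ945 and 118.3 to 303.25 CPM with CTL in WT MG (-0.83 ± 0.338, edgeR adjusted p = 0.729). In Ccr2-/- sdCAMs it lay at 1577.47, 1623.6 and 2751.64 CPM with BLZ945, overlapping CTL (0.34 ± 0.207, edgeR adjusted p = 0.705). The 3 Ccr2-/- MG libraries after BLZ945 spread from 124.67 to 722.5 CPM, and CTL lay inside that range. Mt2 with BLZ945 lay at 0.89, 7.23 and 8.42 CPM in WT MG, against 7.61 to 62.53 CPM with CTL (-2.34 ± 0.767, edgeR adjusted p = 0.574). All genes together were called in 0.0763% of tests in WT MG, 0.0173% in Ccr2-/- MG and 0% in both sdCAM comparisons, where 758 genes in WT and 998 in Ccr2-/- mice had an unadjusted p under 0.05 and DESeq2 called 11 and 63. Without WT sdCAM library 12 after BLZ945, the only marked one in its group, Mt2 was called and made 1 of 6 genes.

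Other metallothioneins and zinc carriers were called at about the share of all genes or below it. Of 23 listed, 15 to 17 passed the filter in each LPS response. In tdT- sdCAMs as named 1 of 17 was called higher and 4 lower, against 26.5% of all genes in either direction, and with the 2 columns exchanged 0 higher and 1 lower. In Ccr2-/- sdCAMs 1 of 16 was higher and 3 lower, against 21.5%, in tdT+ sdCAMs 2 of 17 were lower, against 13.4%, and in the other 4 responses at most 1 was called. The genes called in 2 or more responses were Mt3, Slc39a11 and Slc39a13. Slc39a11, a zinc carrier of the ZIP family, was lower in Ccr2-/- sdCAMs (-1.23 ± 0.329), tdT+ sdCAMs (-2.12 ± 0.534) and tdT- sdCAMs (-2.47 ± 0.548), and with the exchange at -2.45 and -2.01, both still called. Slc39a13, a ZIP carrier of the secretory pathway, was lower in WT MG (-1.24 ± 0.192), Ccr2-/- MG (-1.38 ± 0.213) and tdT- sdCAMs (-1.67 ± 0.574), the last not called with the exchange (-0.62, edgeR adjusted p = 0.535). Mt3, a metallothionein best known from neurons, was lower in tdT+ (-4.64 ± 1.13) and higher in tdT- sdCAMs (3.08 ± 0.954) as named. Its levels were near the detection limit. From PBS to LPS they went from 3.35 to 9.64 CPM to 0 to 0.37 CPM in tdT+ sdCAMs. In tdT- sdCAMs they went from 2.44 to 4 CPM to 7.16 to 17.94 CPM. With the exchange the log2 fold changes of Mt3 were 0.51 and 2.49 and neither was called (edgeR adjusted p = 0.87 and 0.333). The median log2 fold change of the listed genes ran from -1.13 in tdT- sdCAMs to 0.29 in Ccr2-/- MG, where that of all genes was 0.04 and 0.

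By likeness of pattern, Mt2 came first among 8618 genes, with a Pearson correlation to Mt1 of 0.957 in log2(CPM + 1) over the 36 WT and Ccr2-/- libraries and 0.972 over the 18 reporter libraries. Ifitm3 (0.947 and 0.792), Mrpl52 (0.944 and 0.953), Isg15 (0.94 and 0.722) and S100a8 (0.925 and 0.971) followed. The points share treatment, cell type and library composition, so the values describe the libraries and carry no test.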

How the data were processed

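Macrophages were sorted by the authors into MG and sdCAM fractions, RNA was amplified with a SMARTer low-input kit, Nextera XT libraries were read in 50 cycles, and the submitters' notes name bcl2fastq 2.20, STAR 2.7.11a, featureCounts 2.0.8 and DESeq2 1.46.0. The deposited values were raw counts per gene symbol in 3 tables of 18 columns, with no molecular identifiers, so intervals cover counting error only. The notes name both mm10 and GRCm39, so coordinates here come from GENCODE M21 and RefSeq on GRCm38 and not from the count files. Strand use in counting was not given in the sources used here. All columns matched a library, leaving 0 unused.

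CPM is the deposited count over the column total times 1e+06. Comparisons used edgeR 4.0.16 in R 4.3.3 (quasi-likelihood, filterByExpr, TMM, two-sided, Benjamini-Hochberg over all genes tested). Libraries of one genotype and cell type shared a fit, as did all reporter sdCAMs, and interactions used 18 libraries or the reporter sdCAM fit. Alternatives were DESeq2 1.42.0, its size factors, no filter, no fold limit, the mouse as a block, the exchange of 2 columns, the IEG mark and leaving out each library. The share of counts in short genes (90.5% of symbols had a length) was added after the data were seen, as was the search of the first 200 transcript bases, made because the RefSeq windows precede the shorter metallothionein transcripts. Populations of one mouse carry its number in the labels and so are paired. Their deviations from the group means correlated at -0.0241 to 0.167 as named. With the 2 columns exchanged, reporter mice 1 and 7 went from 0.0908 and 0.0369 to 0.23 and 0.273. Mouse 5, whose columns stayed in place, went from 0.167 to 0.0215, as the group means change with the exchange. The fits without the block are the main ones. Named genes were the 6, those of a 23-gene list called in 2 or more LPS responses, and the 5 most like Mt1. The members and lists were chosen with earlier results of these data known. The edgeR fits were tested on simulated data.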

Additional observations from a re-analysis of the deposited data

Results flagged for a closer look

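With columns as named, an interaction test separated tdT+ from tdT- sdCAMs in their response to LPS for 3 of the 6 genes. The interaction was -4.92 for Mt1, -5.21 for Mt2 and 5.47 for Slc30a1 on the log2 scale. The sequencing index and the sex-linked transcripts of 2 of the LPS columns went against their names. The sex-linked transcript Xist lay at 323.25 CPM in tdT- of mouse 1, against 0.49 CPM in tdT+ of that mouse. In tdT+ of mouse 7 Xist lay at 0 CPM, against 322.87 CPM in tdT- of that mouse. With these 2 columns exchanged the interaction was -0.10, -0.27 and 1.83, and 0 of the 6 genes were called. The share of counts in short genes was 15.9% to 18.9% in the tdT- columns after LPS and 3.83% to 5.1% in the tdT+ columns, and with that share as a covariate 0 of the 6 genes were called. Share and tdT state as named cannot be told apart.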

How the results depend on the processing

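Alternative settings were tallied for genes called in a comparison, and for Mt1 and Mt2 in every LPS response. Among these values none changed direction, 410 kept their side of the threshold, 60 lost the call and 9 gained it. Uncalled genes outside this tally could change direction, as Mtf1 did in tdT+ sdCAMs, from 0.43 to -0.26 with the 2 columns exchanged. Of the 6 genes, the exchange of columns left 0 called for tdT+ against tdT- after LPS and 0 for the interaction, also with the mouse as a block. The short-gene share as a covariate left 1 called in tdT+ sdCAMs, 0 in tdT- sdCAMs, 0 between the fractions after LPS and 0 in the interaction, but the share sets the tdT- columns after LPS apart from all other reporter sdCAMs, so share, LPS and tdT state cannot be told apart there. Counting Mt2 among the 6, reporter MG gave 3 called with DESeq2 and 3 without the low-count filter. Without that filter 1 was called for BLZ945 in WT MG, 1 in Ccr2-/- MG and 2 in the Ccr2-/- cell type by LPS interaction, which the mouse as a block raised to 1 from 0. The replicate block changed no other call of the 6 genes except Slc30a1 in the tdT interaction, and it lowered the genes called between untreated WT sdCAMs and MG from 2242 to 1380. DESeq2 gave Mt1 no adjusted p there. Leaving out 1 library at a time gave 0 to 2 called in WT sdCAMs, 0 to 3 in reporter MG, 2 to 3 in the tdT interaction, 0 to 1 for BLZ945 in WT sdCAMs and 1 to 2 between untreated Ccr2-/- populations. Counts over all genes moved more. The exchange gave 1097 against 1698 in tdT+ and 1513 against 3371 in tdT- sdCAMs, and the covariate 51 and 9. In WT sdCAMs 664 became 1655 with DESeq2, 1518 without the filter, 1142 with the mark as a covariate, 1341 in marked libraries and 137 to 293 without 1 library. DESeq2 and no filter gave 854 and 268 against 118 in reporter MG, 83 and 105 against 3 between the PBS fractions, 1227 and 1101 against 657 in the tdT interaction, and 853 and 838 against 174 in the WT cell type interaction, where the block gave 91. For BLZ945 they gave 49 and 108 against 9 in WT MG and 27 and 70 against 2 in Ccr2-/- MG. Without the filter, 43 and 145 were called for BLZ945 in WT and Ccr2-/- sdCAMs, and 31 and 622 in the genotype interactions in MG and sdCAMs, against 0 in each. Without the fold limit, 3643 against 1972 were called in WT MG and 4036 against 2243 in Ccr2-/- MG. Median-of-ratios factors moved the median of all genes from 0.04 to 0.23 in tdT- sdCAMs and from 0.16 to 0 in the tdT interaction, with the same number of the 6 genes called. With 3 mice per group and a biological coefficient of variation of 0.7 in WT sdCAMs and 0.713 in reporter sdCAMs, small changes were not detectable.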
